A study of Oryza sativa with 4 samples.

Results

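The genes described here are 10 rice genes of iron supply and iron storage, of 37858 gene IDs in the deposited table. They were chosen by their IDs, as 2 regulators of the iron-deficiency response (IRO2, Os01g0952800, and IRO3, Os03g0379300), 3 nicotianamine synthases (NAS1, Os03g0307300, NAS2, Os03g0307200, and NAS3, Os07g0689600), deoxymugineic acid synthase (DMAS1, Os03g0237100), 2 transporters (YSL15, Os02g0650300, and YSL2, Os02g0649900) and 2 ferritins (FER1, Os11g0106700, and FER2, Os12g0106000). Their expression was measured by poly(A) RNA sequencing of leaves of the japonica rice cultivar Nipponbare. Heated libraries 1 and 2 came from progeny of heat-treated seeds and carry a 30 °C incubation label. Control libraries 1 and 2 have control titles, but the incubation label is 25 °C for control 1 and 30 °C for control 2. The labels give neither the number of plants behind a library nor the leaf stage, and do not tie replicates to separate plants. The spread behind each p-value may therefore be technical.

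Grasses take up iron as a complex with mugineic acids, small chelators that the roots release into the soil. Nicotianamine synthase makes nicotianamine from S-adenosylmethionine, and deoxymugineic acid synthase completes the last step towards 2′-deoxymugineic acid, the form rice releases. Nicotianamine also stays in the plant, where it binds iron and other metals for transport in the phloem and delivery to young leaves. In leaves, surplus iron is held in ferritin, a hollow protein shell in plastids that keeps the metal from reacting with oxygen.

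Total expected counts ranged from 16605260 to 17298384 in the heated libraries and from 15444235 to 17214538 in the controls. Levels below are CPM, that is, counts relative to the scaled library size, and they are compared between libraries and not between genes, because they are not divided by gene length. All 6 IDs listed as leaf markers (Rubisco small subunits and light-harvesting proteins) were present in every library, and the 1 root marker ID had 0 counts in all 4. The leaf markers summed to 14123 and 16271 CPM in heated 1 and 2, and to 25934 and 15747 CPM in control 1 and 2, so control 1 stood above the other 3 libraries.

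Of the 10 iron genes, 7 were detected and tested, and 3 had 0 counts in all 4 libraries. None of the 7 differed between heated and control leaves after adjustment over all genes (0 called, edgeR quasi-likelihood test with Benjamini-Hochberg adjusted p under 0.05), where 0.699% of the 22184 tested genes were called. DESeq2, edgeR's exact test and limma-voom also called 0 of them. At an unadjusted p under 0.05, 2 of the 7 passed, both ferritins and both higher in heated leaves. Over all tested genes this share was 9.23%, or 4.64% higher and 4.58% lower. The median log2 fold change was 0.19 over the 7 genes and 0.0061 over all tested genes. Both heated libraries lay above both controls for DMAS1, YSL2, FER1 and FER2, a pattern that 21.0% of all tested genes had. For YSL2 this rested on library scaling, because heated 2 and control 2 had 13 counts each. The numbers of genes given here describe the detected genes only, and FER1 and FER2 share reads.

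**Figure D1:**
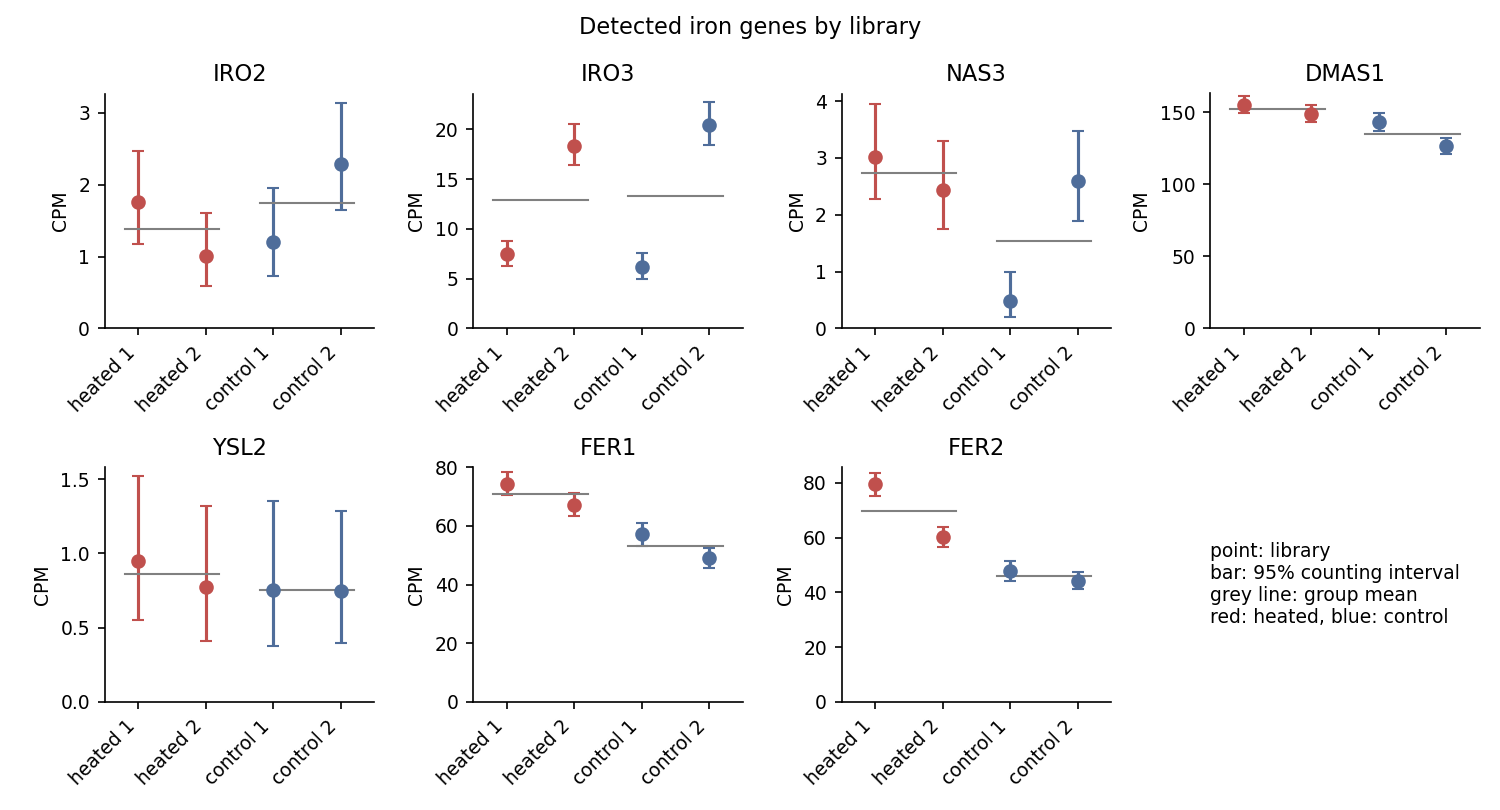
Level of the 7 detected iron genes in each library, in CPM on a linear axis from 0, with heated libraries in red left of the controls in blue; bars are 95% counting intervals and grey lines are group means. FER1 and FER2 lie higher in both heated libraries, IRO3 is high in replicate 2 of both groups, and NAS3 is low in control 1.

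The ferritins had the clearest separation of the groups. FER1 had 74.3 and 67.2 CPM in heated 1 and 2, against 57.0 and 49.0 CPM in control 1 and 2. FER2 had 79.4 and 60.1 CPM in heated 1 and 2, against 47.8 and 44.2 CPM in control 1 and 2. The lowest heated value was above the highest control value for both genes. FER1 averaged 70.7 ± 5.01 CPM in heated and 53.0 ± 5.71 CPM in control leaves (SD, n = 2 each), a log2 fold change of 0.42 (SE 0.14, edgeR adjusted p = 0.425). FER2 averaged 69.7 ± 13.7 CPM in heated and 46.0 ± 2.59 CPM in control leaves (SD, n = 2 each), a log2 fold change of 0.60 (SE 0.17, edgeR adjusted p = 0.299). Neither passed the test over all genes. In RNA of whole leaves, a change in the share of a cell type and a change in RNA per cell cannot be told apart.

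FER1 lies on chromosome 11 and FER2 on chromosome 12, by their IDs. Their counts were fractional in all 4 libraries, as happens where a read matches more than 1 gene and the counting program RSEM splits it between them. The fractions of these genes complemented each other: 1325.53 and 1417.47 counts in heated 1 made 2743, and 1132.76 and 1013.24 in heated 2 made 2146. Likewise 830.54 and 696.46 counts in control 1 made 1527, and 848.52 and 765.48 in control 2 made 1614. In each of these sums FER1 stands first, and no other ID complemented either gene in all 4 libraries. The sum of the pair does not depend on how RSEM divided the reads between them, so it is the firmer measure. It was 153.7 and 127.2 CPM in heated 1 and 2, against 104.9 and 93.1 CPM in control 1 and 2.

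The summed ferritin level averaged 140.5 ± 18.7 CPM in heated and 99.0 ± 8.31 CPM in control leaves (SD, n = 2 each). Fitted as 1 row, the pair was 1.42-fold the control level in heated leaves, a log2 fold change of 0.51 with a 95% interval of 0.13 to 0.88, but the edgeR adjusted p was 0.348. The heated libraries differed from each other by more than the controls did, mostly in the counts that RSEM assigned to FER2. FER1 took 48.3% and 52.8% of the pair's counts in heated 1 and 2, and 54.4% and 52.6% in control 1 and 2. These shares overlapped between the groups, and because reads matching both copies were assigned by RSEM, they give no firm order of the copies. Without heated 1 the log2 fold change of the pair was 0.36 (edgeR adjusted p = 0.9999).

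**Figure D2:**
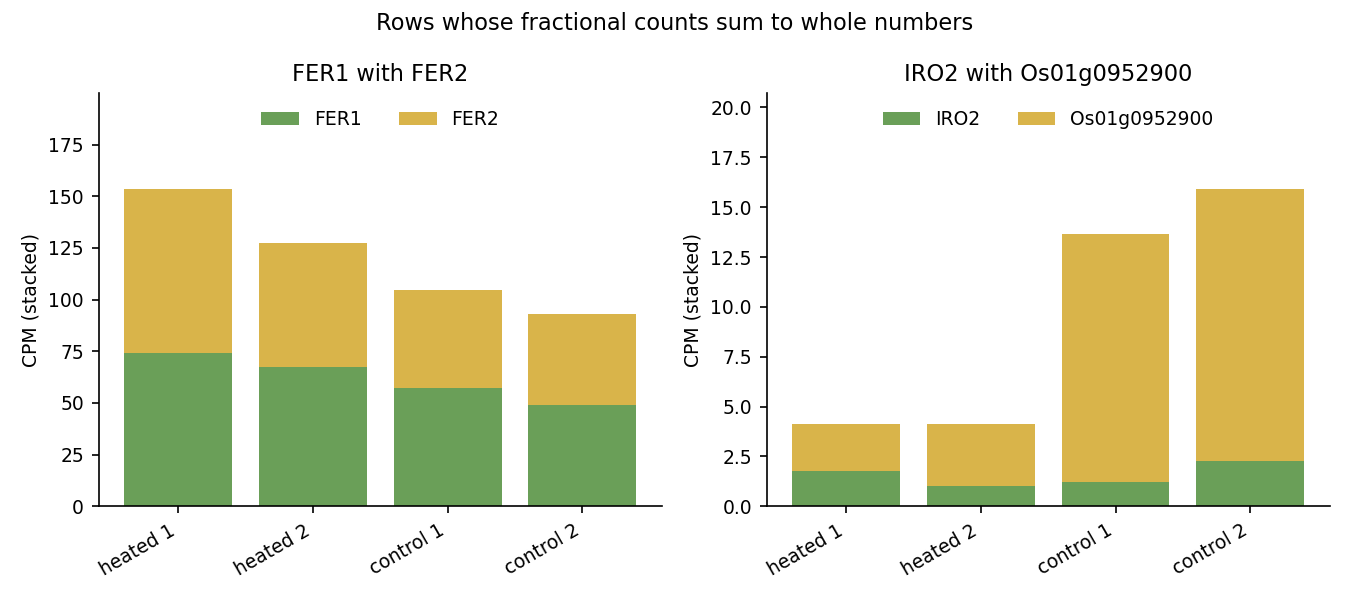
Stacked levels, in CPM, of FER1 with FER2 (left) and of IRO2 with the ID Os01g0952900 (right) in each library, heated libraries left of controls. The ferritin total is highest in heated 1 at 153.7 CPM, whereas the total of IRO2 and its neighbour is 4.15 CPM in both heated libraries and at least 13.7 CPM in the controls.

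IRO2 is a basic helix-loop-helix factor that switches on the genes of mugineic acid synthesis and uptake when iron is short. It was scarce, with 1.75 and 1.01 CPM in heated 1 and 2, against 1.21 and 2.29 CPM in control 1 and 2. The groups overlapped, and the highest and the lowest library were control 2 and heated 2. The log2 fold change was -0.37 (SE 0.51, edgeR adjusted p = 0.878), with a 95% interval from -1.61 to 0.86 that leaves both directions possible.

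The counts of IRO2 were fractional as well, and 1 ID complemented them to whole numbers in all 4 libraries: Os01g0952900, the next ID along the chromosome. That ID, which the files and the reference table do not name, was looked at after its counts were seen. It had 2.39 and 3.14 CPM in heated 1 and 2, against 12.5 and 13.6 CPM in control 1 and 2. It fell in heated leaves, with a log2 fold change of -2.23 (SE 0.25, edgeR adjusted p = 0.0278), and was among the 0.451% of tested genes called lower. Without heated 1 the adjusted p was 0.102.

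IRO2 and its neighbour together had 74 and 70 counts in heated 1 and 2, against 199 and 276 in control 1 and 2. The pair had 4.15 CPM in each heated library, against 13.7 and 15.9 CPM in control 1 and 2. Fitted as 1 row, the log2 fold change was -1.83 (SE 0.21, edgeR adjusted p = 0.0298), and the adjusted p was 0.132 without heated 1 and 0.0957 without heated 2. IRO2 took 42.3% and 24.3% of the shared total in heated 1 and 2, and 8.85% and 14.4% in control 1 and 2. The lower total in heated leaves was thus counted almost wholly under the neighbour, while the count of IRO2 itself overlapped between the groups. How many reads matched both IDs is not given by the table, and the sources used here do not say whether strand was used in counting. The level of IRO2 is therefore uncertain.

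IRO3 is a related helix-loop-helix factor that acts as a negative regulator of the iron-deficiency response and is itself induced when iron is short. It had 7.45 and 18.4 CPM in heated 1 and 2, against 6.18 and 20.5 CPM in control 1 and 2. The low libraries were replicate 1 of each group and the high ones replicate 2, so the groups overlapped fully. Replicate 2 stood 2.47-fold above replicate 1 in heated leaves and 3.31-fold above it in control leaves. The counts were whole, between 90 and 355, and the 95% counting intervals of the low and high libraries did not meet. Between the groups the log2 fold change was -0.05 (SE 0.61, edgeR adjusted p = 0.987), with a 95% interval of -1.54 to 1.44. As folds, the interval ran from 0.343-fold to 2.70-fold, so a change of that size in either direction could not be told from none.

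IRO3 differed between replicates more than most genes. The median difference between replicates over 21922 tested genes was 0.17 on the log2 scale in the heated pair and 0.29 in the control pair. A difference at least as large as that of IRO3, 1.30 in the heated pair and 1.73 in the control pair, was seen in 2.39% and 2.997% of these genes. Replicate 2 stood at least 2-fold above replicate 1 in both groups in 0.347% of the 22184 tested genes, and replicate 1 as far above replicate 2 in 0.672%. Ferritin, DMAS1 and YSL2 stayed close together in the control pair, at 0.22 or less. In the heated pair FER1 and DMAS1 differed by 0.14 and 0.06, and FER2 and YSL2 by 0.40 and 0.31. IRO2 differed by 0.80 in the heated pair and 0.92 in the control pair. A difference at least that large was seen in 6.92% and 10.9% of genes. The counts of IRO2 were low, and its counting intervals met within each pair. In the heated pair the total with Os01g0952900 was 4.15 CPM in each library, so the difference there lay in how counts were divided between the IDs.

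**Figure D3:**
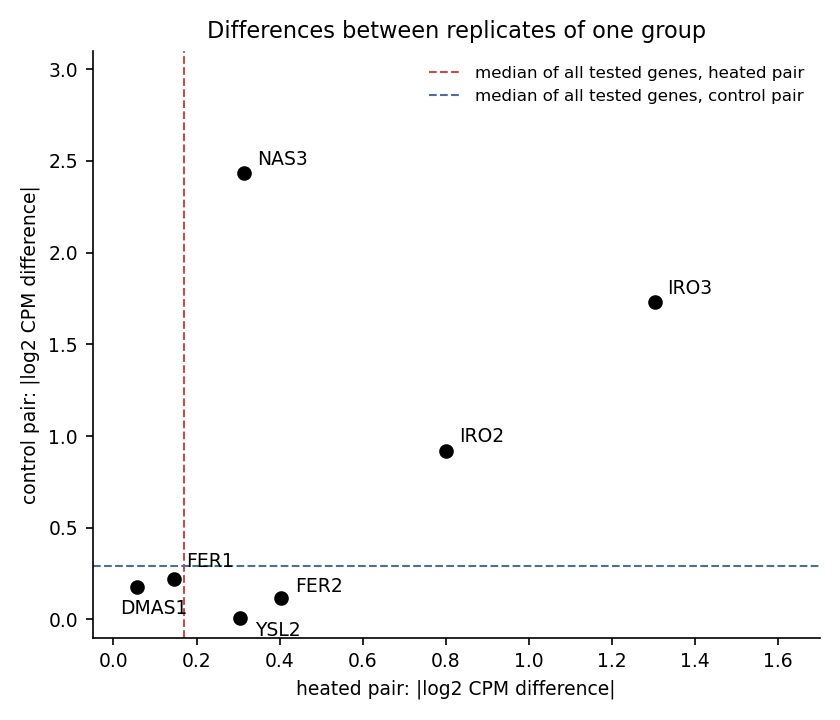
Size of the log2 CPM difference between replicates for the 7 detected iron genes, in the heated pair (horizontal axis) and the control pair (vertical axis); dashed lines are the medians of all tested genes, 0.17 and 0.29. IRO3 lies far from both medians, and NAS3 has the largest difference of the 7 genes in the control pair, 2.43.

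Of the nicotianamine synthases, only NAS3 was detected. NAS1 and NAS2 are neighbouring copies on chromosome 3, known for strong expression in iron-deficient roots. Both had 0 counts in all 4 libraries, which allows at most 0.168 and 0.178 CPM in heated 1 and 2, and 0.206 and 0.173 CPM in control 1 and 2 (3 counts per library, counting error only). Since both were at 0, no reads were divided between these copies.

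NAS3 is the nicotianamine synthase gene known from leaves. It had 54 and 41 counts in heated 1 and 2, against 7 and 45 in control 1 and 2. This was 3.02 and 2.43 CPM in the heated libraries, against 0.481 and 2.60 CPM in the controls. Control 1 was thus low, while control 2 lay between the heated libraries. Each of the other 3 libraries stood between 5.06-fold and 6.29-fold above control 1, and the counting interval of control 1, 0.193 to 0.990 CPM, stayed below theirs. Every other library stood at least 4-fold above control 1 in 1.38% of tested genes.

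Between heated and control leaves, NAS3 averaged 2.73 ± 0.420 CPM and 1.54 ± 1.50 CPM (SD, n = 2 each), a log2 fold change of 0.80 (SE 0.69, edgeR adjusted p = 0.792). The value turned on control 1. It was 0.07 without control 1 and 2.47 without control 2. Each of these fits left 1 control library. Without control 2, the heated libraries at 30 °C were set against the 25 °C control alone. Control 1 is the library with the 25 °C label and also the one with the highest summed leaf markers, whose part in this difference was not tested. Grouped by the temperature label, NAS3 was higher in the 3 libraries at 30 °C by 2.46 on the log2 scale (SE 0.46), with an edgeR adjusted p of 0.0807. That grouping called 0.747% of the genes it tested and 0 of the 7 iron genes. NAS3 alone of the 7 had an unadjusted p under 0.05 there, which 21.3% of all genes in that test had. It sets 1 library against 3, so label and library cannot be told apart.

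DMAS1 varied little between libraries. It had 155.2 and 149.2 CPM in heated 1 and 2, against 143.1 and 126.5 CPM in control 1 and 2. The heated libraries were the higher ones, but the nearest heated and control values, 149.2 and 143.1 CPM, were closer than the controls were to each other. The mean was 152.2 ± 4.25 CPM in heated and 134.8 ± 11.7 CPM in control leaves (SD, n = 2 each). The log2 fold change was 0.18 (SE 0.14, edgeR adjusted p = 0.774), and its 95% interval corresponds to 0.897-fold to 1.42-fold. DMAS1 also had fractional counts, complemented to whole numbers by the neighbouring ID Os03g0237201. Between 99.6% and 99.9% of the shared counts were assigned to DMAS1, and summing the rows gave a log2 fold change of 0.17.

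The transporters belong to the yellow stripe-like family, which carries metals bound to nicotianamine or mugineic acids. YSL15 takes up the iron complex of deoxymugineic acid, chiefly in roots. It had 0 counts in all 4 libraries, with the same limits as NAS1 and NAS2. YSL2 moves iron and manganese bound to nicotianamine in the phloem. It had 17 and 13 counts in heated 1 and 2, against 11 and 13 in control 1 and 2.

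In CPM, YSL2 had 0.952 and 0.771 in heated 1 and 2, against 0.755 and 0.750 in control 1 and 2. The 4 counting intervals overlapped, with 0.555 to 1.52 CPM in heated 1 and 0.377 to 1.35 CPM in control 1. The log2 fold change was 0.19 (SE 0.50, edgeR adjusted p = 0.940), and its 95% interval, 0.491-fold to 2.67-fold, is wide. A change within that interval could not be told from none.

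**Figure D4:**
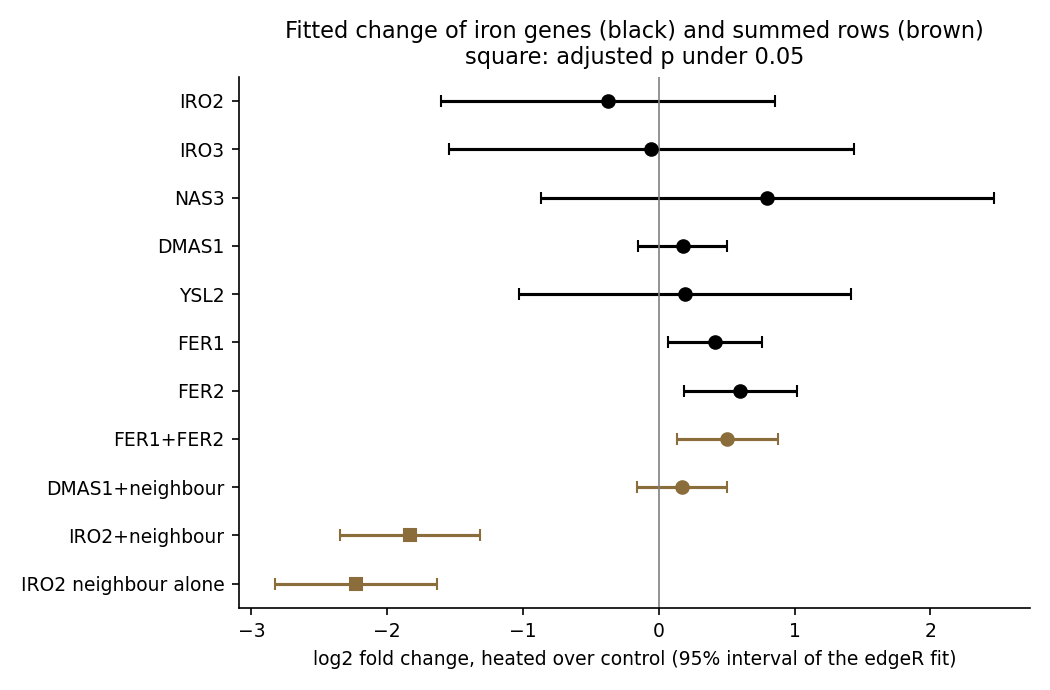
Fitted log2 fold change of heated over control leaves with its 95% interval, for the 7 detected iron genes (black) and for rows summed with the ID that shares their reads, plus that neighbour of IRO2 alone (brown); squares have an adjusted p under 0.05. The intervals of both ferritins lie above 0 without passing the adjusted test, and only the pair of IRO2 with its neighbour, at -1.83, and the neighbour alone, at -2.23, passed.

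A further 27 IDs, listed as other genes of iron uptake, transport, storage and their regulation, were read from the same fit. Neither the files nor the reference table name these IDs, so they are given as a list. Of them, 20 were tested and 4 had 0 counts in all libraries. The edgeR quasi-likelihood test called 0, against 0.699% of all tested genes, and an unadjusted p under 0.05 was found for 1 higher and 1 lower. Limma-voom also called 0, whereas DESeq2 and edgeR's exact test called 2 each, 1 higher and 1 lower. Over all genes, DESeq2 called 551 of 37858 IDs. The exact test called 732 and limma-voom 131 of 22184 tested genes. The median log2 fold change was -0.09, with 8 positive and 12 negative values. Both heated libraries lay above both controls in 3 of the 20 and below them in 6, where 21.0% and 19.5% of all tested genes did so.

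The ID with the smaller p was Os09g0396900. It had 4.26 and 3.20 CPM in heated 1 and 2, against 0.961 and 0.635 CPM in control 1 and 2, and the groups did not overlap. Its log2 fold change was 2.23 (SE 0.41, edgeR adjusted p = 0.103). The other was Os04g0578600, with 1.68 and 3.74 CPM in heated 1 and 2, against 7.90 and 11.8 CPM in control 1 and 2. The groups did not overlap here either. The log2 fold change of Os04g0578600 was -1.86 (SE 0.42, edgeR adjusted p = 0.174). DESeq2 called both IDs (adjusted p = 0.0323 for Os09g0396900 and 0.0114 for Os04g0578600). EdgeR's exact test also called both (adjusted p = 0.00068 and 0.00506). Both were singled out after their values were seen.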

How the data were processed

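The authors deposited 1 table of expected counts by gene for 4 leaf libraries (2 heated, 2 control by title), not normalized and taken, per the file headers, from RSEM's gene results. Per the submitters' processing notes, FastQC 0.11.7, Trimmomatic, Bowtie2, RSEM, edgeR 3.26.3 and the build IRGSP-1.0 were used; the settings, the gene annotation and the use of strand are not stated there. The table had 0 columns of other samples. Expected counts were rounded and tested in R 4.3.3 with edgeR 4.0.16 (quasi-likelihood, group as the only term, filterByExpr with minimum count 10 and minimum total 15, TMM scaling), on 22184 genes. The test was also run on simulated counts drawn from its own fitted spread, which does not check that spread or the effect of shared reads. CPM values used unrounded counts. Standard errors are the log2 fold change divided by the square root of F. Counting intervals (95%) are exact Poisson intervals, and floors are 3 counts; both cover counting error only. Rows were taken to share reads where fractional counts summed to whole numbers (within 0.015) in every library.

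Gene names follow the list that defined the genes. The reference table (assembly ASM3414082v1) matched 1 ID directly and lists 6 of the 10 names on the chromosome given by the ID; its record for IRO3 also carries OsIRO2 as a synonym. The iron genes, the lists and the tests were chosen with earlier results of these data known. All 10 genes are named; other IDs are named by number only. No sequence is printed, because no table at hand held one. Alternatives used DESeq2 1.42.0, limma 3.58.1 and the settings given in the closing section.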

Additional observations from a re-analysis of the deposited data

How the results depend on the processing

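The count of 155 called genes became 419 without a filter on low counts, 551 with the DESeq2 Wald test, 732 with edgeR's exact test and 532 with a replicate block, and between 64 and 2506 when 1 library was left out (64 without heated 1, 2506 without control 2). Over the iron genes the count of 0 did not hold without control 2, the setting that also had the highest count over all genes. NAS3 had a log2 fold change of 2.47 there, in a fit that left 1 control library. With all 4 libraries, the count became 1 where IRO2 and DMAS1 were summed with their neighbours, because the summed row of IRO2 passed. That alternative was chosen after seeing the data, and it called 155 of 22182 genes. Of the other listed IDs, 2 of 23 were called without a filter, where 419 of 29698 genes were. The DESeq2 Wald test called 2 of 27, against 551 of 37858 over all IDs. Edge R's exact test called 2 of 20, against 732 of 22184 genes, and the replicate block 3 of 20, against 532 of 22184. The count also moved in the fits that left 1 control library, and so did the count over all genes.

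IRO3 had a log2 fold change of -0.05 that became 0.043 with the replicate block, 1.32 under the temperature label, and -0.84 to 1.05 when 1 library was left out. IRO2, at -0.37 as reported, had 0.45 under the temperature label and between -0.81 and 0.14 when 1 library was left out. None of these values passed. FER1 and FER2 stayed positive in every setting run, 0.15 to 0.53 and 0.36 to 0.79, with adjusted p of at least 0.121 and 0.0953. Without heated 1, which leaves 1 heated library, the values of FER1 and FER2 were 0.34 and 0.39. Os01g0952900 was called in all but 2 of 17 alternatives (adjusted p = 0.583 under the temperature label), and its sum with IRO2 in all but 3 of 16. What caused these shifts was not tested. The labels do not tie the replicate numbers to a shared batch, and whether there was one was not tested. Across 22184 genes, the difference between replicates had a correlation of -0.01 between the groups. A value over all genes cannot tell of a batch that acts on some of them. With the replicate block the count over all genes went from 155 to 532, and all 7 iron genes stayed uncalled. IRO2, NAS3 and YSL2 had at most 54 counts a library, which makes their counting intervals wide.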

Other observations

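The split of IRO3 by replicate number, with replicate 2 at least 2-fold above replicate 1 in both groups, was seen in 77 of 22184 tested genes, and the opposite split in 149. IRO3 was the 1 iron gene of the 7 with this pattern, and 2 of the 20 tested IDs of the longer iron list had it. Of these 2, Os07g0142100 had 0.137 CPM in control 1, below the floor of 0.206 CPM there. The genes with each split were counted after the values of IRO3 were seen. The labels do not say what the replicate numbers stand for.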
